A study of Mus musculus with 2 samples.

Results

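The genes described here are 10 members of the vascular endothelial growth factor (VEGF) and angiopoietin systems, Vegfa, Vegfb, Vegfc, Pgf, Kdr, Flt1, Nrp1, Tek, Angpt1 and Angpt2. They were taken by symbol from the 31053 genes of 2 spatial transcriptome matrices of calvarial bone, which forms the roof of the mouse skull, and all 10 were found. The section named Blank is of a calvarial defect that received no collagen/nHA material. The one named Col_nHA is of a defect that did receive collagen/nHA. Both were harvested at day 7, frozen in embedding medium and sectioned, and the labels name no further treatment, strain or number of animals. Each matrix held 4992 barcodes, and the barcodes with at least 3667 UMIs (unique molecular identifiers, one per captured RNA molecule) in Blank and at least 4690 in Col_nHA were kept as spots. This left 2249 spots in Blank and 2471 in Col_nHA. A spot is a small area that can hold several cells. With 1 section per group, differences between the groups could not be set against a spread between replicates, and no p-values were computed. Values in parentheses are the bounds of exact 95% intervals, which take in the error of counting and no other.

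VEGF-A is the main growth signal for blood vessel endothelium. It acts through the receptor tyrosine kinase encoded by Kdr (VEGFR-2), while the receptor encoded by Flt1 (VEGFR-1) binds VEGF-A, VEGF-B and placental growth factor and can hold VEGF-A away from Kdr, and neuropilin-1 (Nrp1) is a co-receptor. The angiopoietins act through the endothelial receptor Tie2 (Tek): angiopoietin-1 activates it and stabilises vessels, and angiopoietin-2, made largely by endothelial cells, often counters that action. In healing bone, vessel ingrowth accompanies bone formation, and Vegfa is known to be induced by low oxygen.

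The spots held 30705849 UMIs in Blank and 40202268 in Col_nHA, with medians of 9733 and 13815 UMIs per spot. Genes of bone-forming cells were present, as the 9-gene osteoblast list took 0.104% of UMIs in Blank and 0.0643% in Col_nHA and had no member at 0. Other tissues were present too and unequally so. The skeletal muscle list took 0.606% of UMIs in Blank and 1.43% in Col_nHA, the skin epithelium list 0.268% and 0.167%, and the choroid plexus list 1.22% and 0.0149%.

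The promoter sequences of 4 members are shown because Kdr and Flt1 varied together across tissue regions, Vegfa had the highest ratio between the sections, and Tek lay on the other side of 1. Each is the 250 bases before a transcript start in a RefSeq table (GRCm38.p6), written 5′ to 3′ on the gene's strand, for Vegfa at chr17:46032378-46032627 (minus), Kdr at chr5:75978456-75978705 (minus), Flt1 at chr5:147726012-147726261 (minus) and Tek at chr4:94739039-94739288 (plus). The Vegfa stretch lies just outside the annotated span of the gene, while those of Kdr and Flt1 lie wholly and that of Tek mostly inside the spans given with the levels, so these are not the outermost starts. Capitals mark, on either strand, the GC box GGGCGG, the ETS core GGAAGT and the hypoxia-inducible factor cores ACGTG and GCGTG.
Vegfa: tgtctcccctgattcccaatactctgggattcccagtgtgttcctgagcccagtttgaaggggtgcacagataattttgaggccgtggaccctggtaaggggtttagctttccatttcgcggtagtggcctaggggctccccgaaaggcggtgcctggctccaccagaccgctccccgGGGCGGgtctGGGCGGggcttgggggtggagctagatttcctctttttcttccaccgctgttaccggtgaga
Kdr: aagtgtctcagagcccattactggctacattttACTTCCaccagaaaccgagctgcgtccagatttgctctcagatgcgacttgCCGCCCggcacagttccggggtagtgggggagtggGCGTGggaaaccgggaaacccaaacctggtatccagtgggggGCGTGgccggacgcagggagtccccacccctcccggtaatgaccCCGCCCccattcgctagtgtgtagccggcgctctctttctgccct
Flt1: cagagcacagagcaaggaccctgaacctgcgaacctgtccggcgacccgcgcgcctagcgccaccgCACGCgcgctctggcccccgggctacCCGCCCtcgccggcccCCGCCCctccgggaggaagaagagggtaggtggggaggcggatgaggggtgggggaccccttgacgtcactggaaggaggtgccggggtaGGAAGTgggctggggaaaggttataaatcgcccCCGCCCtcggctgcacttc
Tek: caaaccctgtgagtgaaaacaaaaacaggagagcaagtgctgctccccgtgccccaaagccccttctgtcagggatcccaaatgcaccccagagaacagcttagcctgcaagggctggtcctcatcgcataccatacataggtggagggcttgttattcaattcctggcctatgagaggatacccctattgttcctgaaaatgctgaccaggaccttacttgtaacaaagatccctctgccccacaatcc
The search covered windows of 300 bases that add the 50 bases after the start, and 8 of the 10 members matched the table. In these windows Vegfa held 2 GC boxes and none of the other motifs, Kdr 2 GC boxes, 1 ETS core and 2 GCGTG cores, Flt1 3 GC boxes, 1 ETS core and 1 GCGTG core, and Tek none of them. A second annotated Vegfa start had 1 match to each of the 4 motifs. Of 32851 promoter windows of this length, 35.7% held a GC box, 23.8% the ETS core, 19.6% ACGTG and 32.4% GCGTG, so these matches are common and only describe the letters.

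Between the sections, Vegfa and the receptor genes Kdr and Flt1 stood higher in Col_nHA, Vegfc and Pgf also stood higher, Tek stood lower, and the intervals of Vegfb, Nrp1, Angpt1 and Angpt2 included a ratio of 1. Levels are counts scaled to a common total of UMIs in the spots of a section (CPM), and ratios are Col_nHA over Blank. More cells of a type and more RNA per cell cannot be told apart in these sums. The 9 members that reached 10 CPM in either section are counted below as tested, and Nrp1 did not reach it.

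**Figure D1:**
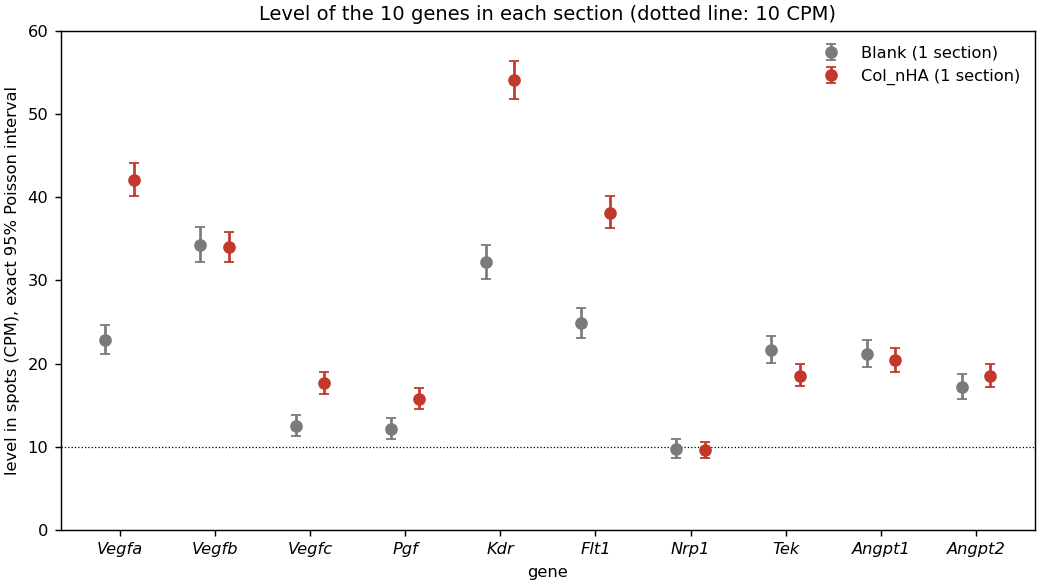
Level of each of the 10 genes in CPM in the spots of Blank (grey) and Col_nHA (red), 1 section each. Points are section values and bars exact 95% Poisson intervals. Vegfa, Vegfc, Pgf, Kdr and Flt1 lie higher in Col_nHA with intervals apart, and Nrp1 lies just under the dotted 10 CPM minimum in both sections.

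Among the ligands, Vegfa (chr17:46016993-46032377) measured 22.9 CPM (21.2 to 24.6) in Blank against 42.1 CPM (40.1 to 44.2) in Col_nHA, from 702 and 1693 UMIs. This is a ratio of 1.84 (1.69 to 2.01), and 97.6% of the 9855 genes with at least 10 CPM had a lower one. Vegfc (chr8:54077532-54186454), the main lymphatic growth signal, measured 12.4 CPM in Blank against 17.7 CPM in Col_nHA, a ratio of 1.42 (1.252 to 1.61). Both genes were thus higher in Col_nHA beyond counting error. Pgf (chr12:85166637-85177785), the Flt1 ligand placental growth factor, measured 12.1 CPM in Blank against 15.7 CPM in Col_nHA, a ratio of 1.30 (1.14 to 1.48). Vegfb (chr19:6982472-6987651), which binds Flt1 and not Kdr, measured 34.3 CPM in Blank against 34.0 CPM in Col_nHA, a ratio of 0.992 (0.914 to 1.08). The Vegfb values of the sections thus overlapped within counting error. Pgf made up 34.6% (31.8 to 37.6) of the summed Vegfa and Pgf UMIs in Blank and 27.2% (25.4 to 29.1) in Col_nHA, so the balance of these Flt1 ligands in captured UMIs leaned further to Vegfa in Col_nHA.

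Of the receptors, Kdr (chr5:75932827-75979072) measured 32.2 CPM (30.2 to 34.3) in Blank against 54.2 CPM (51.9 to 56.5) in Col_nHA, a ratio of 1.68 (1.56 to 1.81). Flt1 (chr5:147561604-147726438) measured 24.8 CPM in Blank against 38.2 CPM in Col_nHA, a ratio of 1.54 (1.41 to 1.68). These ratios exceeded those of 96.6% and 95.4% of all tested genes. The share of Flt1 in the summed Kdr and Flt1 UMIs was 43.6% (41.2 to 45.9) in Blank and 41.3% (39.7 to 42.9) in Col_nHA, with overlapping intervals. Nrp1 (chr8:128358591-128505476) measured 9.74 CPM in Blank against 9.60 CPM in Col_nHA, a ratio of 0.986 (0.846 to 1.15). The barcodes under the UMI minimum held Nrp1 at 19.2 CPM (15.2 to 23.9) and 15.8 CPM (12.5 to 19.7) in Blank and Col_nHA, above the spots of both sections with intervals apart.

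In the angiopoietin system the receptor gene and its ligands did not follow Kdr. Tek (chr4:94739086-94874976) measured 21.7 CPM (20.04 to 23.4) in Blank against 18.6 CPM (17.2 to 19.9) in Col_nHA, a ratio of 0.857 (0.771 to 0.953). Angpt1 (chr15:42424667-42676977) measured 21.2 CPM in Blank against 20.4 CPM in Col_nHA, a ratio of 0.964 (0.868 to 1.07). Angpt2 (chr8:18690263-18741562) measured 17.2 CPM in Blank against 18.5 CPM in Col_nHA, a ratio of 1.08 (0.964 to 1.21). Tek was therefore the member with the lowest ratio, and 21.3% of all tested genes lay below it. Angpt2 made up 44.8% (41.9 to 47.7) of the summed angiopoietin UMIs in Blank and 47.6% (45.1 to 50.1) in Col_nHA, with overlapping intervals.

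None of the 9 tested members was at least 2-fold higher or lower, against 1.83% of all tested genes at least 2-fold higher and 3.4% at least 2-fold lower. Of the 9, 6 had a ratio above 1 and 3 below, with a median log2 ratio of 0.38, beside 0.02 over all tested genes. Vegfa lay close to the 2-fold line and crossed it in other settings: its log2 ratio of 0.88 became 1.05 with the mean of per-spot CPM. It became 1.07 without the spots that held over 2% of their UMIs in the muscle, skin, fat, nerve, brain and choroid plexus lists (29.4% of Blank and 14.1% of Col_nHA spots). In those remaining spots the log2 ratio was 0.81 for Kdr, 0.72 for Flt1, -0.08 for Tek and -0.24 for Vegfb.

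The endothelial list, 12 genes of vessel lining that hold no member, also took more UMIs in Col_nHA. It held 19607 UMIs in Blank and 32123 in Col_nHA, 0.0639% and 0.0799% of the totals, a ratio of 1.251 (1.23 to 1.27), and none of its genes was at 0. Of its 11 genes at 10 CPM or more, 10 had a ratio above 1. Its most abundant genes were Plvap, of the diaphragms of fenestrated vessels, at 1.23, and Egfl7, a secreted endothelial factor, at 1.28, and its largest ratios were those of Ecscr at 1.66 and the sialomucin gene Emcn at 1.52. Per 100 UMIs of this list, Kdr stood at 5.04 in Blank and 6.78 in Col_nHA, a ratio of 1.34 (1.246 to 1.45), and Flt1 at 3.89 and 4.78, a ratio of 1.23 (1.12 to 1.34). Tek stood at 3.39 and 2.32 on the same scale, a ratio of 0.685 (0.616 to 0.761), Angpt2 at 2.69 and 2.32, and Angpt1 at 3.32 and 2.55. Relative to the endothelial transcripts summed over each section, Kdr and Flt1 were thus still higher in Col_nHA. On this scale Pgf had a ratio of 1.04 (0.912 to 1.18), and Tek and both angiopoietins were lower. Vegfb at 0.793 (0.731 to 0.860) and Nrp1 at 0.788 (0.676 to 0.92) were lower too. The scaling divides each section ratio by the 1.251 of the list, so members with a section ratio near 1 fall below 1 on it. The part of vessel content in the section ratios beyond this scaling was not tested.

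Of 28 other genes of these pathways, 24 reached 10 CPM, 1 was at least 2-fold higher in Col_nHA and 1 at least 2-fold lower, 12 had a ratio above 1 and 12 below, and the median log2 ratio was 0.01. The higher one was Apln, the gene of the peptide apelin made by sprouting endothelium, at 14.1 CPM in Blank against 34.3 CPM in Col_nHA, a ratio of 2.43 (2.18 to 2.72). The lower one was Sema3c, which encodes a semaphorin ligand of neuropilins and plexin D1, at 61.0 CPM in Blank against 26.4 CPM in Col_nHA, a ratio of 0.433 (0.401 to 0.467). The most abundant of the list by the summed CPM of the sections were Hif1a, the oxygen-regulated transcription factor subunit, at 165 and 239 CPM, a ratio of 1.45 (1.401 to 1.5002), and Angptl4, which encodes a secreted inhibitor of lipoprotein lipase, at 179 and 152 CPM, a ratio of 0.850 (0.819 to 0.881). These 4 genes lay on both sides of 1, as the whole list did. Some further genes were picked after their values were seen. The Tie2 relative Tie1 had a ratio of 1.201 (1.11 to 1.30), on the other side of 1 from Tek, and the Tie2 phosphatase gene Ptprb had 0.941 (0.861 to 1.03). Vegfd, a further ligand of lymphatic vessels, had 0.643 (0.590 to 0.702), on the other side of 1 from Vegfc.

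Shares of spots with a UMI of a member were compared after each spot was thinned to 2000 UMIs. Kdr was found in 5.65% (4.73 to 6.68) of Blank and 9.83% (8.69 to 11.1) of Col_nHA spots, Vegfa in 4.18% (3.39 to 5.09) and 8.58% (7.505 to 9.75), and Flt1 in 5.38% (4.48 to 6.39) and 8.13% (7.09 to 9.28). These 3 members had intervals apart, and the other 7 did not. Tek was found in 4.31% of Blank and 3.48% of Col_nHA spots, and Angpt2 in 3.11% and 2.95%. Without thinning the shares were 21.7% and 38.5% for Vegfa and 27.8% and 43.4% for Kdr, and 7 members had intervals apart. The share of all genes with intervals apart was not computed with or without thinning, so neither count is set against a background.

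The barcodes under the UMI minimum served as the background of free RNA and thin tissue, with median depths of 1248 UMIs in Blank and 1760 in Col_nHA. At 500 UMIs each, Vegfa was found in 2.63% (2.04 to 3.34) of Col_nHA spots and 1.54% (1.08 to 2.13) of the barcodes under the minimum, and Kdr in 2.99% (2.36 to 3.75) and 2.27% (1.70 to 2.96). Flt1 was found in 1.90% of Col_nHA spots and 2.18% of the barcodes under the minimum, and Vegfa in 1.07% of Blank spots and 0.978% of the Blank barcodes under the minimum. The intervals of spots and background overlapped for every member in both sections, so a single UMI in a spot is not read here as expression in that place. Summed over the barcodes under the minimum, Kdr was at 26.9 CPM in Blank and at 52.9 CPM in Col_nHA, Flt1 at 26.4 and 41.1 CPM and Vegfa at 15.9 and 38.5 CPM, with intervals that did not overlap between the sections for Kdr and Vegfa (Kdr 22.2 to 32.4 and 46.7 to 59.7, Vegfa 12.3 to 20.2 and 33.2 to 44.4) or for Flt1 (21.7 to 31.9 and 35.7 to 47.2). Tek was at 17.5 (13.7 to 22.1) and 15.8 (12.5 to 19.7) CPM there, with intervals that overlapped. The other members were at 9.61 to 24.3 CPM in Blank and 15.8 to 30.2 CPM in Col_nHA under the minimum. Summed levels in the spots stood above those of these barcodes with intervals apart for 2 members in Blank, Vegfa and Vegfb, and for 0 in Col_nHA. They stood below for Nrp1 in both sections, and the intervals of the other 7 members in Blank and 9 in Col_nHA overlapped. These levels and shares are scaled to depth, so they compare composition and not the amount of RNA. Unscaled, Kdr had 989 UMIs in the 2249 spots of Blank and 112 in the 2743 barcodes under the minimum. In Col_nHA it had 2177 UMIs in 2471 spots and 261 in 2521 such barcodes. As a share of UMIs, most section levels given here therefore overlapped with those of the barcodes under the minimum. These barcodes can hold RNA of the same tissue, so like shares cannot tell expression in place from background.

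**Figure D2:**
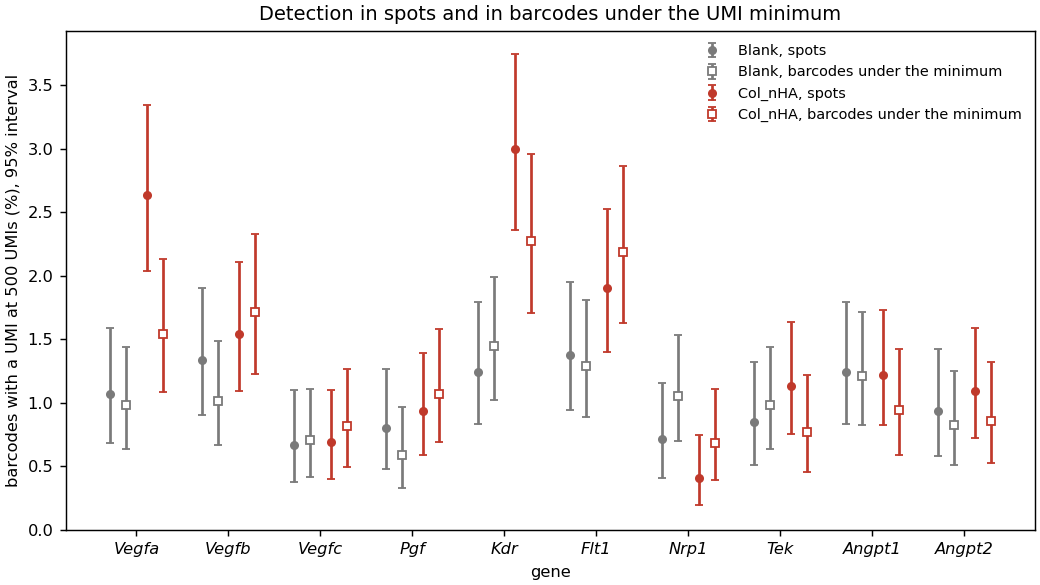
Share of barcodes with a UMI of each gene after thinning to 500 UMIs, in percent, for spots (filled) and barcodes under the UMI minimum (open) of Blank (grey) and Col_nHA (red), with exact 95% intervals. Filled and open points lie near each other for most genes, and Vegfa in Col_nHA has the widest gap, 2.63% against 1.54%.

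The same limit holds for pairs of genes in a spot. Of the 8 pairs examined in each section at 2000 UMIs, 2 had intervals apart, both in Col_nHA. Flt1 was found in 14.8% (10.6 to 19.9) of the 243 Col_nHA spots with a Kdr UMI and in 7.41% (6.35 to 8.57) of those without. Flt1 was found in 2.83% (1.05 to 6.06) of the 212 Col_nHA spots with a Vegfa UMI and in 8.63% (7.51 to 9.87) of those without. In Blank the matching shares were 8.66% and 5.18% for Flt1 with Kdr and 9.57% and 5.20% for Flt1 with Vegfa, with overlapping intervals.

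To see which members followed vessel content, the spots of each section were cut into 5 equal parts (quintiles) by the share of their UMIs in the endothelial list. The median of that share over spots was 0.0141% in the lowest and 0.124% in the highest quintile of Blank, and 0.0165% and 0.169% in Col_nHA. Kdr, Flt1, Tek and Angpt2 were at least 2-fold higher in the highest quintile of both sections. Kdr went from 13.4 to 62.1 CPM in Blank, a ratio of 4.64 (3.63 to 5.99), and from 20.2 to 127 CPM in Col_nHA, a ratio of 6.31 (5.37 to 7.45). Flt1 went from 9.79 to 45.0 CPM in Blank, a ratio of 4.595 (3.45 to 6.22), and from 16.2 to 80.5 CPM in Col_nHA, a ratio of 4.96 (4.13 to 5.999). Ranking the spots on counts thinned to 2000 UMIs gave smaller ratios, 2.55 (2.07 to 3.16) for Kdr and 2.82 (2.20 to 3.65) for Flt1 in Blank and 4.18 (3.61 to 4.86) for Kdr and 3.51 (2.95 to 4.19) for Flt1 in Col_nHA. Tertiles in place of quintiles gave 2.96 (2.49 to 3.53) for Kdr in Blank. With the quintiles of the full counts, both receptor genes stood higher at each step from the lowest to the highest quintile, in both sections.

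Tek went from 13.4 to 40.4 CPM in Blank, a ratio of 3.02 (2.33 to 3.94), and from 9.81 to 43.0 CPM in Col_nHA, a ratio of 4.39 (3.45 to 5.63). In the next quintile down from the highest it measured 23.8 CPM in Blank against 15.3 CPM in Col_nHA, while the highest quintiles were alike within their intervals. Angpt2 went from 10.8 to 23.1 CPM in Blank, a ratio of 2.14 (1.58 to 2.92), and from 11.3 to 33.4 CPM in Col_nHA, a ratio of 2.95 (2.33 to 3.75). The lower level of Tek in Col_nHA therefore lay in the spots poorer in endothelial transcripts, outside the highest quintile. Pgf had a ratio of 2.44 (1.72 to 3.52) in Blank and 1.67 (1.29 to 2.16) in Col_nHA, whereas Angpt1, whose product is known to come mainly from perivascular and stromal cells, had ratios of 0.906 (0.694 to 1.18) and 1.10 (0.866 to 1.395). Of the 9 tested members, 5 were at least 2-fold higher in the highest quintile of Blank, where 3.84% of all genes were, and 4 in Col_nHA, where 3.16% were. The thinned ranking left 3 in Blank, where Angpt2 had a ratio of 1.16 (0.897 to 1.51) and Pgf 1.97, and 4 in Col_nHA.

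**Figure D3:**
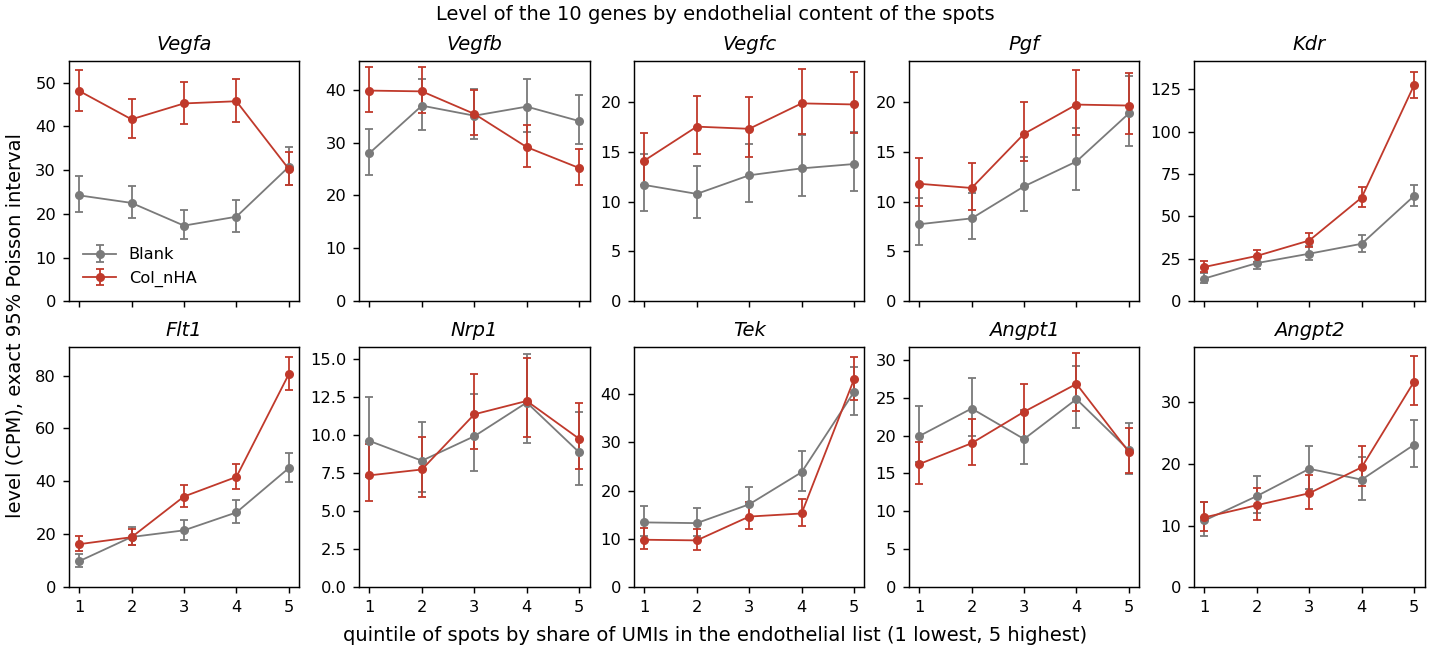
Level of each gene in CPM over the quintiles of spots ranked by their share of UMIs in the endothelial list, from lowest (1) to highest (5), in Blank (grey) and Col_nHA (red), with exact 95% Poisson intervals. Kdr, Flt1, Tek and Angpt2 are at their highest level in quintile 5 of both sections, and Vegfa in Col_nHA is at its lowest there, at 30.3 CPM.

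Vegfa went down with the endothelial list in Col_nHA and not in Blank. In Col_nHA it stood at 48.1 CPM in the lowest and 30.3 CPM in the highest quintile, a ratio of 0.629 (0.535 to 0.737), and in Blank at 24.2 and 30.7 CPM, a ratio of 1.27 (1.02 to 1.59). In Blank the thinned ranking gave 1.52 (1.19 to 1.96) and tertiles 1.11 (0.926 to 1.32). By quintiles, Vegfa was thus near 30 CPM in the most endothelial part of both sections, and the higher level in Col_nHA lay in the other 4. This depended on the cut, which ranks spots within each section. In the highest tertile Vegfa was at 26.2 CPM (23.2 to 29.6) in Blank and 36.8 CPM (33.6 to 40.2) in Col_nHA, with intervals apart. Vegfb had ratios of 1.22 (0.988 to 1.5005) in Blank and 0.633 (0.530 to 0.754) in Col_nHA.

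Ranked by the hypoxia response list, 12 genes known to be induced by low oxygen, Vegfa differed between the sections in another way. In Col_nHA it stood at 28.5 CPM (24.9 to 32.4) in the lowest and 99.4 CPM (91.7 to 108) in the highest quintile, a ratio of 3.49 (2.997 to 4.08). In Blank it stood at 21.2 and 22.4 CPM, a ratio of 1.06 (0.805 to 1.396). The Col_nHA gradient was 2.86 with tertiles in place of quintiles and 2.31 (1.98 to 2.69) with the thinned ranking, and the Blank one 1.01 and 1.19. Vegfa was the 1 member of 9 at least 2-fold higher in the highest quintile of Col_nHA, where 1.83% of all genes were, and no member was in Blank, where 2.72% of genes were. The median UMIs of the lowest and highest quintiles were 14911 and 10300 in Col_nHA and 7340 and 8263 in Blank, and the part of depth in the ratios was not tested beyond the thinned ranking.

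The hypoxia list took 0.0396% of UMIs in Blank and 0.0517% in Col_nHA, with no gene at 0, and 2 of its 11 tested genes were at least 2-fold higher in Col_nHA. Those were Slc2a1, the glucose transporter GLUT1, at 2.35 (2.16 to 2.56), and the oxygen-sensing prolyl hydroxylase gene Egln3 at 2.04 (1.74 to 2.39). Its most abundant genes, the collagen prolyl hydroxylase genes P4ha2 and P4ha1, had ratios of 1.17 and 1.30. Of the 11 tested genes, 9 had a ratio above 1 and 2 below. The other members did not share the gradient of Vegfa. Angpt1 was lower in the highest hypoxia quintile of both sections, with ratios of 0.555 (0.412 to 0.744) in Blank and 0.503 (0.385 to 0.652) in Col_nHA. With the thinned ranking these were 0.798 (0.611 to 1.04) and 0.810 (0.638 to 1.03).

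**Figure D4:**
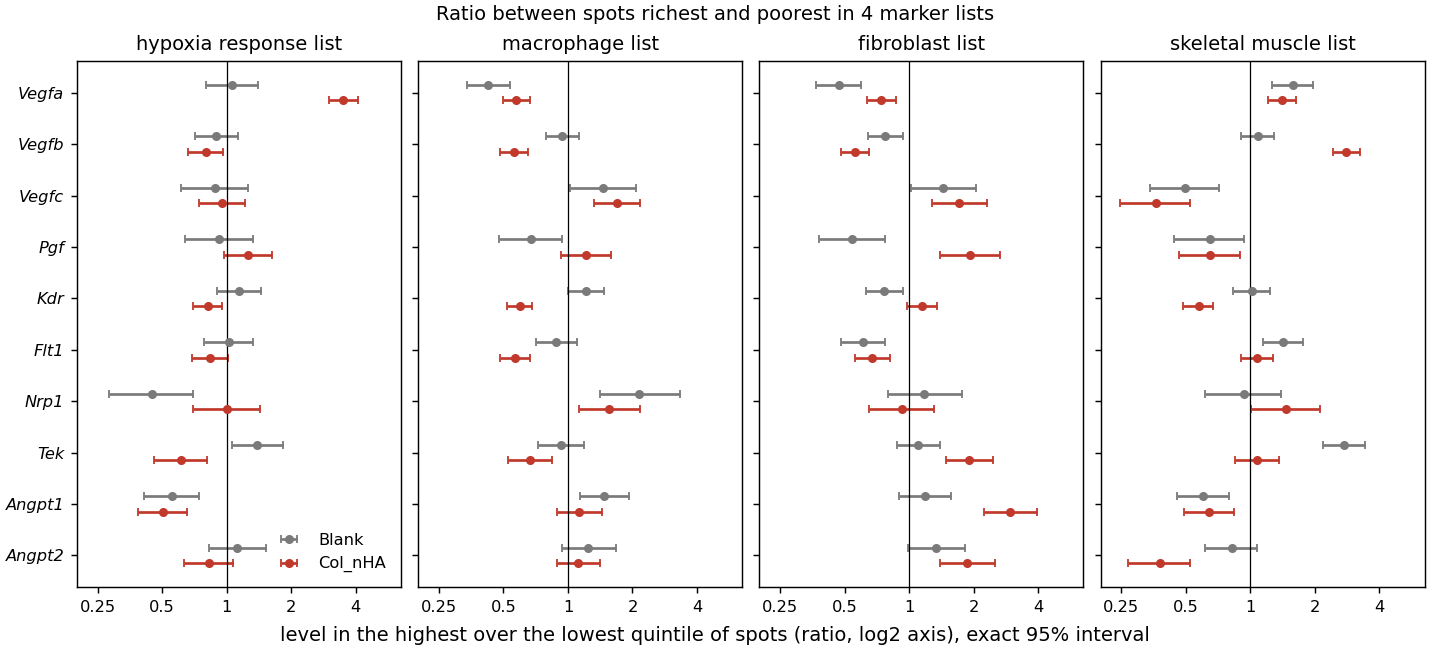
Ratio of the level in the highest over the lowest quintile of spots by the hypoxia response, macrophage, fibroblast and skeletal muscle lists for each gene, on a log2 axis, in Blank (grey) and Col_nHA (red), with exact 95% intervals. Vegfa stands at 3.49 for the hypoxia list in Col_nHA and at 1.06 in Blank, Tek at 2.74 for the muscle list in Blank, and Vegfb at 2.81 for it in Col_nHA.

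Ranked by the pericyte and smooth muscle list, genes of the cells around vessels, 3 of 9 members were at least 2-fold higher in the highest quintile of Col_nHA, where 6.47% of all genes were, and 1 in Blank, where 1.42% were. In Col_nHA they were Kdr at 2.73 (2.38 to 3.14), Flt1 at 2.58 (2.20 to 3.04) and Pgf at 2.06 (1.60 to 2.66), and in Blank Vegfc at 2.09 (1.49 to 2.99). Kdr and Flt1 had ratios of 1.2503 and 1.30 in Blank. With the thinned ranking 1 member in Col_nHA and none in Blank was at least 2-fold higher, and Pgf in Col_nHA had 1.36 (1.06 to 1.74). The leading genes of this list by abundance and size of ratio were Acta2, smooth muscle actin, at 1.66, Rgs5 at 1.01 and Myh11 at 0.660 for Col_nHA over Blank. Of its 9 tested genes, 5 had a ratio above 1 and 4 below. Acta2 held 16605 UMIs in Blank and 36009 in Col_nHA, against 5726 and 7601 of Rgs5, the next most abundant. The ranking thus leaned on Acta2 more than on the other genes of the list.

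Vegfa was lower in the spots richest in macrophage transcripts, at 14.9 CPM against 35.1 CPM in the lowest quintile of Blank, a ratio of 0.426 (0.337 to 0.536). In Col_nHA it stood at 31.7 against 55.2 CPM, a ratio of 0.575 (0.498 to 0.663). Nrp1, which macrophages are known to express, had ratios of 2.15 (1.41 to 3.35) and 1.56 (1.13 to 2.17), and Vegfc had 1.45 (1.02 to 2.08) and 1.69 (1.32 to 2.17). In Blank, however, Vegfc had 0.953 (0.683 to 1.33) with the thinned ranking and 1.24 (0.958 to 1.61) with tertiles, and Nrp1 1.30 (0.967 to 1.76) with tertiles. Vegfa was the 1 tested member at least 2-fold lower in Blank, where 7.77% of all genes were, and none was in Col_nHA, where 5.58% were. No tested member, Nrp1 not being among them, was at least 2-fold higher by this list, against 4.25% of genes in Blank and 10.8% in Col_nHA. Lyz2 held 128004 UMIs of the list in Blank and 245145 in Col_nHA, against 19517 and 27759 of C1qb. The macrophage ranking thus leaned on Lyz2 far more than on the other genes of the list. The list's leading genes, Lyz2, C1qb, Cd14 and Fcgr1, had section ratios of 1.46, 1.09, 1.85 and 1.79. Of its 12 genes, 10 had a ratio above 1 and 2 below, Mrc1 at 0.801 (0.769 to 0.835) and Aif1 at 0.811 (0.771 to 0.853).

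Ranked by the fibroblast list, Angpt1 stood at 8.51 CPM in the lowest and 25.1 CPM in the highest quintile of Col_nHA, a ratio of 2.95 (2.23 to 3.95), and in Blank at 15.4 and 18.2 CPM, a ratio of 1.19 (0.899 to 1.57). Angpt1 was the 1 member at least 2-fold higher in Col_nHA, where 12.2% of all genes were, so this count is near the background, and no member was in Blank, where 2.78% of genes were. Tertiles gave 0 members in Col_nHA, with Angpt1 at 1.83 (1.52 to 2.22), and the thinned ranking 2. Vegfa was lower in the fibroblast-rich quintiles, with ratios of 0.469 (0.369 to 0.594) in Blank and 0.741 (0.634 to 0.865) in Col_nHA. It was the 1 member at least 2-fold lower in Blank, where 7.67% of all genes were, and none was in Col_nHA, where 5.78% were. The list's leading genes, Col3a1, Lum, Clec3b and Dpt, had section ratios of 0.745, 0.734, 0.201 and 0.272. Col3a1 held 581150 UMIs in Blank and 566929 in Col_nHA, against 61613 and 59241 of Lum. The fibroblast ranking thus leaned on Col3a1 far more than on the other genes of the list.

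Ranked by the skeletal muscle list, Tek stood at 14.6 CPM in the lowest and 40.1 CPM in the highest quintile of Blank, a ratio of 2.74 (2.19 to 3.44), and at 19.1 and 20.5 CPM in Col_nHA, a ratio of 1.08 (0.852 to 1.35). Vegfb stood at 27.5 and 77.2 CPM in Col_nHA, a ratio of 2.81 (2.43 to 3.26), and in Blank at 37.4 and 40.5 CPM, a ratio of 1.08 (0.902 to 1.29). Each was the 1 member at least 2-fold higher in its section, where 9.45% of all genes were in Blank and 5.45% in Col_nHA, so these counts are near the background. Vegfc was lower in muscle-rich spots of both sections, at 0.496 (0.339 to 0.711) in Blank and 0.363 (0.246 to 0.522) in Col_nHA, and Angpt2 was at 0.380 (0.269 to 0.525) in Col_nHA, where tertiles gave 0.628 (0.506 to 0.775). At least 2-fold lower were thus 1 of 9 members in Blank, where 3.9% of all genes were, and 2 of 9 in Col_nHA, where 27.6% were and the median log2 over all genes was -0.69. The Col_nHA count is about the background share. By tertiles in Blank, Tek had a ratio of 2.02 (1.68 to 2.42) for the muscle list and 2.34 (1.94 to 2.81) for the fat list. The median share of the muscle list in the spots of the highest quintile was 1.48% of UMIs in Blank and 7.42% in Col_nHA. The median depths of the lowest and highest quintiles were 17764 and 7761 UMIs in Blank and 23380 and 9721 UMIs in Col_nHA. Of its leading genes, Acta1, Ckm, Myh4 and Pvalb had section ratios of 1.72, 3.90, 12.8 and 6.17. Of the 12 genes of the list, 11 had a ratio above 1 and 1 below, Myh2 at 0.430 (0.411 to 0.450).

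In Blank, Vegfa also stood higher in the spots rich in choroid plexus transcripts, at 33.8 against 17.7 CPM, a ratio of 1.91 (1.53 to 2.39), and the thinned ranking gave 2.14 (1.70 to 2.70). No tested member reached 2-fold by this list in Blank, where 2.01% of genes did, or in Col_nHA, where 3.38% did. The median share of the list in the spots of the highest Col_nHA quintile was 0.0360% of UMIs. Its leading genes Ttr and Enpp2 stood at 10825 and 1013 CPM in Blank and at 0.647 and 19.1 CPM in Col_nHA, and Kcnj13 at 15.6 CPM and, from 1 UMI, 0.0249 CPM. In Col_nHA, Aqp1 held 4834 UMIs of the list against 768 of Enpp2, so the ranking there rested largely on Aqp1 and is not read as choroid plexus content.

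The spots of both sections were also clustered together, without the members and the other pathway genes among the clustering genes, into 17 regions that carry a number and leading genes only. Of these, 8 held at least 50 Blank spots, 10 held at least 50 Col_nHA spots, and regions 2 and 10 held at least 50 of both. Comparing the highest with the lowest region, 9 members in Blank and 10 in Col_nHA differed at least 2-fold with intervals apart. The share of all genes that pass the same comparison was not computed, so these counts do not set the members apart from other genes.

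**Figure D5:**
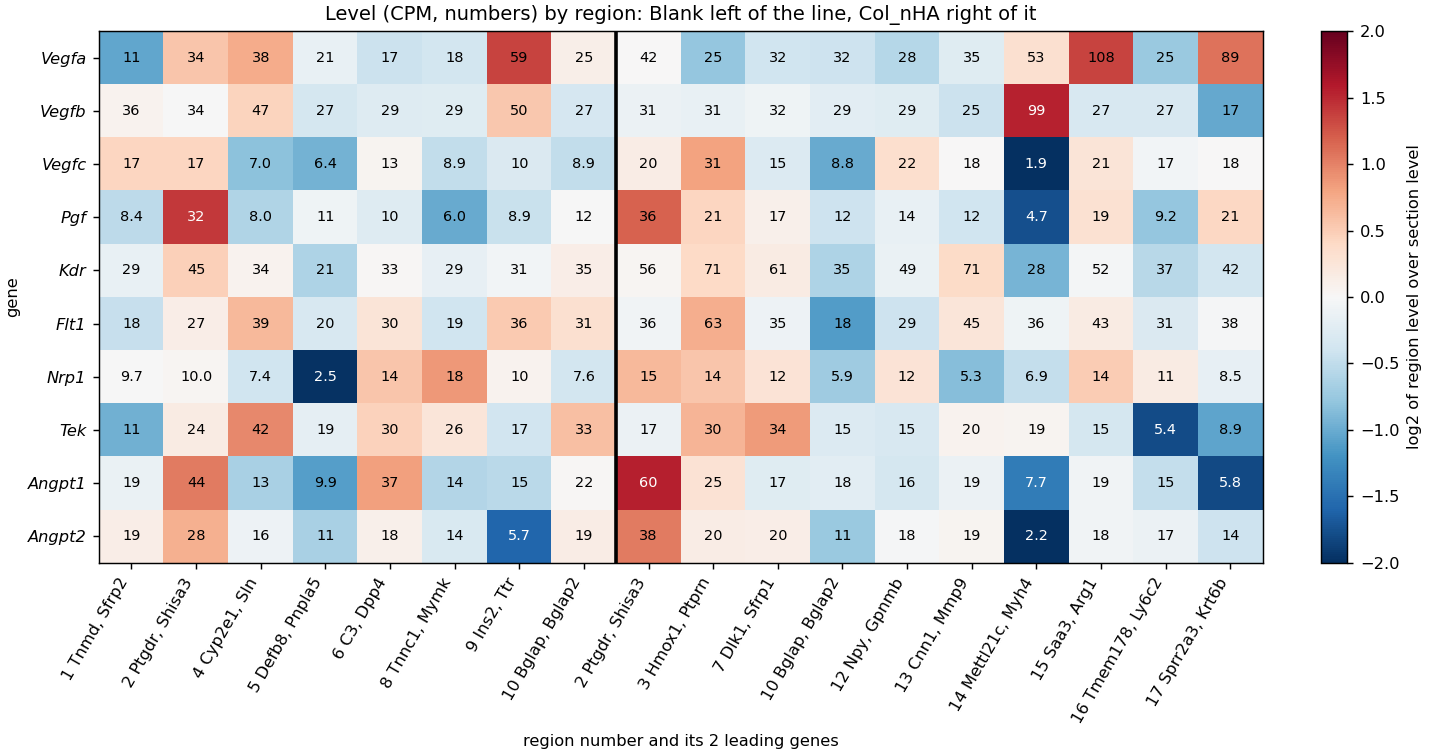
Level of each gene by region, with Blank regions left of the line and Col_nHA regions right of it; numbers are CPM and colours the log2 of the region level over the section level, with the colour scale ending at -2 and 2. Pgf, Angpt1 and Angpt2 are highest in region 2 of both sections, Vegfa in regions 9 (Blank) and 15 (Col_nHA), and Vegfb in region 14 (Col_nHA).

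Vegfa was highest in region 15 of Col_nHA, led by Saa3, Arg1 and Cxcl5, at 108 CPM (94.5 to 122), and in region 17, led by Sprr2a3 and Krt6b, at 89.2 CPM (78.0 to 102). The other Col_nHA regions held it at 24.5 to 52.8 CPM. Regions 15 and 17 together held 28.0% of the Vegfa UMIs of Col_nHA and 12.1% of all its UMIs. They were also the Col_nHA regions with the most hypoxia list UMIs, 0.0873% and 0.0837%, and region 17 held 2.19% of its UMIs in the skin list. In Blank, Vegfa was highest in region 9, led by Ins2 and Ttr and with 21.0% of its UMIs in the choroid plexus list, at 58.5 CPM (47.2 to 71.8), and lowest in region 1, led by Tnmd and Sfrp2, at 11.1 CPM (9.13 to 13.4).

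The other ligands had their own regions. Vegfb reached 98.8 CPM (88.8 to 110) in Col_nHA region 14, led by Mettl21c and Myh4 and with 14.9% of its UMIs in the muscle list, and 16.7 CPM (12.1 to 22.5) in region 17. Region 14 held 26.3% of the Vegfb UMIs and 9.04% of all UMIs of Col_nHA. Vegfc was nearly absent from that region, at 1.93 CPM (0.774 to 3.97) from 7 UMIs, and highest in region 3, led by Hmox1 and Ptprn, at 30.9 CPM (24.4 to 38.7). In Blank, regions 1 and 2 held Vegfc at 16.8 and 16.7 CPM, with overlapping intervals.

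Pgf, Angpt1 and Angpt2 shared region 2, led by Ptgdr, Shisa3 and Penk, as their highest region in both sections. Pgf stood there at 32.2 CPM (26.9 to 38.2) in Blank against 35.7 CPM (29.8 to 42.3) in Col_nHA, and region 2 held 34.7% of Pgf UMIs and 13.1% of all UMIs in Blank. Angpt1 stood at 43.6 CPM (37.4 to 50.6) and 59.9 CPM (52.3 to 68.4), and Angpt2 at 28.2 CPM (23.2 to 33.9) and 38.1 CPM (32.1 to 45.0). The next regions were lower with intervals apart in Col_nHA, with Angpt1 at 24.9 CPM and Angpt2 at 20.5 CPM in region 3. In Blank, region 6, led by C3 and Dpp4, held Angpt1 at 37.3 CPM (28.1 to 48.6), within the interval of region 2.

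Kdr and Flt1 spread more evenly over the regions than Tek. The highest region over the lowest was 2.12 for Kdr and 2.15 for Flt1 in Blank and 2.51 and 3.58 in Col_nHA, against 3.80 and 6.28 for Tek. For Nrp1 it was 7.18 in Blank, from 10 UMIs in the lowest region, and 2.82 in Col_nHA. Kdr was at 71.1 CPM (61.0 to 82.4) in region 3 and 70.9 CPM (65.9 to 76.1) in region 13, led by Cnn1 and Mmp9, of Col_nHA, which were alike within counting error, and lowest in region 14 at 28.3 CPM. Region 13 held 34.3% of Kdr UMIs and 26.2% of all UMIs. In Blank, Kdr ran from 21.0 CPM in region 5, led by Defb8 and Pnpla5, to 44.6 CPM in region 2. Flt1 was highest in region 3 of Col_nHA at 63.1 CPM (53.6 to 73.8) and in region 4 of Blank, led by Cyp2e1 and Sln, at 38.8 CPM (32.2 to 46.3). Tek also peaked in region 4 of Blank, at 42.3 CPM (35.4 to 50.2), a region with 4.18% of its UMIs in the muscle list. That region also held 0.114% of its UMIs in the endothelial list and 0.374% in the fat list. Both were the highest shares of the Blank regions with at least 50 spots. In Col_nHA, Tek ranged from 5.35 CPM in region 16, led by Tmem178 and Ly6c2, to 33.6 CPM in region 7, led by Dlk1 and Sfrp1. Region 7 held 0.120% of its UMIs in the endothelial list, the highest share of the Col_nHA regions with at least 50 spots. Nrp1 was highest in region 8 of Blank, led by Tnnc1 and Mymk, at 17.8 CPM (13.8 to 22.5).

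Within region 2, the members could be compared between the sections among spots of the same cluster, 236 in Blank and 208 in Col_nHA. Angpt1 had a ratio of 1.37 (1.12 to 1.68), Angpt2 1.35 (1.05 to 1.75), Flt1 1.33 (1.03 to 1.73), Kdr 1.24 (1.01 to 1.53) and Vegfa 1.26 (0.996 to 1.60). Tek again lay below 1, at 0.709 (0.508 to 0.984). The endothelial list took 0.0642% of the region 2 UMIs in Blank and 0.0761% in Col_nHA, and these ratios were not scaled to it. Over the 9825 genes tested there, 1.54% were at least 2-fold higher and 1.14% lower, and the median log2 ratio was 0.11. In region 10, led by Bglap and Bglap2, with 125 Blank and 93 Col_nHA spots, Tek stood at 32.9 and 15.4 CPM, a ratio of 0.469 (0.268 to 0.792), and Flt1 at 31.0 and 17.6 CPM, a ratio of 0.569 (0.334 to 0.945). Kdr stood at 35.4 and 35.3 CPM there, so the ratio of Flt1 in this region lay on the other side of 1 from its section ratio. The endothelial list took 0.0593% of the region 10 UMIs in Blank and 0.0505% in Col_nHA.

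The genes most alike in pattern were found by Pearson r of log2(CPM + 1) over the 18 region totals with at least 50 spots, which share libraries and depth, and are given as a description. Kdr and Flt1 had r = 0.69, and Kdr was the gene most like Flt1, followed by Chchd4 and Tmem88. Kdr itself was closest to Fam167b (0.87), Aplnr (0.86) and Emcn (0.86), and Tek to Tns2 (0.84), Slc9a3r2 (0.81) and Ptprb (0.81), while Kdr and Tek had r = 0.10. The patterns of Kdr and Tek thus differed over these regions. This does not extend to the 2 systems as wholes, as Pgf and Angpt2 had r = 0.70, Vegfb and Angpt2 -0.65, and Tek and Angpt2 0.10. Vegfa was closest to Higd1a (0.69) and to the glycolysis genes Pkm (0.67) and Pgk1 (0.66). Vegfb was closest to Pdk2 (0.94) and to Atp5e (0.94) and Ndufa3 (0.93), genes of the mitochondrial ATP synthase and complex I.

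For the remaining members, Vegfc was closest to Tes (0.95), Dock5 (0.94) and Nek6 (0.92), and Pgf to Piezo2 (0.86), Gdpd5 (0.85) and Zgpat (0.85). Angpt1 was closest to the matrix protein gene Mgp (0.90), Fam26e (0.90) and Tbx18 (0.89), and Angpt2 to Slc50a1 (0.96), Dse (0.94) and Ccdc8 (0.94). Nrp1 was closest to Orc3 (0.75), Dynlt1c (0.75) and Usf1 (0.72). Among the members themselves, Vegfc and Angpt2 had the highest r, 0.77, and Vegfb and Vegfc the lowest, -0.66, with region 14 at the low end for Vegfc and the high end for Vegfb.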

How the data were processed

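The deposited files hold unscaled UMI counts of each gene in each barcode, per the file headers and their whole-number values. Per the submitters' processing notes the authors made them with Space Ranger (version not given in the sources used here) on build mm10, and Cell Ranger 4 is named in the headers of the matrices. Frozen spatial sections are described in the labels, while their extraction text describes a droplet single-cell library. Both files hold the same 4992 array barcodes with no tissue filter, and no image or coordinates were used here. The barcodes kept held 88.1% of the Blank and 89.1% of the Col_nHA UMIs, and 265 and 215 barcodes lay within 10% of the minimum.

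UMIs of the kept barcodes were summed within each section and converted to CPM. Ratios have exact conditional binomial intervals, CPM exact Poisson intervals and shares exact Clopper-Pearson intervals. Calls used 2-fold among genes with at least 10 CPM in either section. Spots were ranked by their share of UMIs in marker lists that hold no member, and clustered by Leiden at resolution 0.6 (2000 variable genes, 30 components, 15 neighbours). The members and lists were chosen with earlier results of these data known. Named genes were all members, from each list the 2 most abundant and 2 of the largest log2 ratios in size among those at 10 CPM or more, and the 3 genes most like each member. Tie1, Ptprb and Vegfd were added after their values were seen, and regions are described by leading genes. Positions and promoters are those of RefSeq on GRCm38.p6, and 30934 of 31053 gene IDs matched the name table. The calculations were tested on simulated data. Scanpy 1.11.5, scipy 1.17.1, numpy 2.4.6 and pandas 2.3.3 were run in Python 3.11.15, and R 4.3.3 with edgeR 4.0.16 for TMM factors on the counts alone. Alternatives covered the UMI minimum, scaling, CPM minimum, thinning, spot ranking and clustering resolution.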

Additional observations from a re-analysis of the deposited data

Results flagged for a closer look

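Of 70 comparisons of a member over the quintiles of a marker list in both sections, 6 had opposite directions in the sections with both intervals clear of 1, and the difference between the sections was not tested. The 70 cover the endothelial, pericyte and smooth muscle, hypoxia response, macrophage, fibroblast, skeletal muscle and choroid plexus lists. Spots were also ranked by the neutrophil, osteoblast, osteoclast, lymphatic, platelet, skin, fat, nerve and brain lists, which are not counted here. All values are levels in the highest over the lowest quintile. Vegfa by the endothelial list stood at 0.629 (0.535 to 0.737) in Col_nHA and 1.27 (1.02 to 1.59) in Blank, where tertiles gave 1.11 (0.926 to 1.32) and the thinned ranking 1.52 (1.19 to 1.96). Vegfa by the pericyte and smooth muscle list stood at 1.24 (1.06 to 1.44) in Col_nHA and 0.605 (0.481 to 0.760) in Blank, and the thinned ranking gave 1.04 (0.897 to 1.198) in Col_nHA. Tek by the hypoxia response list stood at 0.610 (0.457 to 0.809) in Col_nHA and 1.39 (1.06 to 1.83) in Blank, where the thinned ranking gave 1.14 (0.887 to 1.46) and tertiles 1.19 (0.973 to 1.45). Kdr by the macrophage list stood at 0.597 (0.521 to 0.682) in Col_nHA and 1.21 (1.0003 to 1.47) in Blank, where tertiles gave 1.05 (0.900 to 1.22) and the thinned ranking 1.16 (0.957 to 1.42). Pgf by the fibroblast list stood at 1.92 (1.399 to 2.65) in Col_nHA and 0.543 (0.378 to 0.774) in Blank. Angpt1 by the choroid plexus list stood at 1.74 (1.35 to 2.26) in Col_nHA, where this list took 0.0149% of UMIs, and 0.548 (0.418 to 0.713) in Blank. The Col_nHA ranking rested largely on Aqp1, with 4834 UMIs against 26 of Ttr. The Blank ranking rested largely on Ttr, with 332389 UMIs against 4755 of Aqp1, so these directions are not of the same ranking.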

How the results depend on the processing

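No paired analysis was possible because each group held 1 library and the labels give no shared replicate numbers, and for the same reason no replicate could be left out. Members at least 2-fold higher in Col_nHA numbered 1 in place of 0 with the mean of per-spot CPM and without spots with over 2% of UMIs in other tissue lists, Vegfa both times. The median log2 ratio of the members became 0.75 at a minimum of 50 CPM, where Kdr alone was left, and ranged from 0.24 to 0.42 in the other settings. Members with a higher share of spots numbered 7 without thinning and 3 with it. With tertiles in place of quintiles, the members at least 2-fold higher numbered 0 for the pericyte list in Blank and 0 for the fibroblast list in Col_nHA. With spots ranked on counts thinned to 2000 UMIs they numbered 3 for the endothelial list in Blank, 0 for the pericyte list in Blank, 1 for it in Col_nHA, 2 for the fibroblast list in Col_nHA and 1 for the choroid plexus list in Blank. The other 58 summary values kept within 1.5 times of the main count or within counting error. Over 8 settings of the UMI minimum, scaling, summary and spots, the sign changed for Vegfb in 4 and for Nrp1 in 2, and for none of the other 8 members. TMM scaling moved all log2 ratios by 0.04, the most of any scaling. Few UMIs per member limit what single regions can show.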
